A study of Caenorhabditis elegans with 2 samples.

Results

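The genes described here are 10 genes of Wnt signalling and planar cell polarity in Caenorhabditis elegans, taken from a fixed list of names out of 19973 nuclear protein-coding genes. They are the planar polarity genes vang-1, prkl-1 and fmi-1, the Wnt acylation gene mom-1, the Wnt ligand genes mom-2, lin-44, egl-20, cwn-1 and cwn-2, and the frizzled receptor gene lin-17. The study mapped by chromatin immunoprecipitation and sequencing (ChIP-seq) where RNT-1, the RUNX transcription factor of the worm, lay on chromatin. The 2 biological replicates form 1 group: whole hermaphrodite embryos of strain OP462 (unc-119(tm4063) III; wgIs462) at the late embryonic stage, 5 h after synchronization by bleaching, with an antibody against GFP for the pull-down. Both carried RNT-1 with a GFP and FLAG tag at its C-terminus, and both carried the unc-119 mutation. No second condition was analysed here, and a whole embryo does not show which cells a signal came from.

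Wnt proteins are secreted signals that carry a lipid, which Porcupine enzymes attach before release, and they are received by frizzled proteins at the surface of the target cell. The planar polarity proteins Van Gogh, Prickle and Flamingo lie unevenly around the cell membrane and orient cells in the plane of a tissue. In the worm, Wnt signals set the direction of asymmetric divisions, among them those of the seam cells of the epidermis, in whose divisions RNT-1 is also known to act.

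For each gene, regions were taken whose summit, the position the authors gave as the highest point of a region, lay from 5 kb upstream of the gene's outermost annotated start to its end. The main list was the one that passed the irreproducible discovery rate (IDR) threshold, with 1931 regions, here called IDR peaks. These 1931 regions are the strongest of the 19793 regions called on both replicates together, here called pooled regions. Of the 10 genes, 3 had an IDR peak: mom-1 and lin-17 with 2 each and vang-1 with 1. This is 30% of the genes, against 14.9% of all protein-coding genes, and the 2 shares rest on windows of different length, with a median of 9.04 kb for the 10 genes and 7.03 kb for all. Per kb of window there were 0.0468 IDR summits at the 10 genes and 0.0209 at all protein-coding genes. Within a start window, which runs from 1000 bp before an annotated start to 200 bp past it, 2 of the 10 genes, vang-1 and mom-1, had an IDR summit, against 6.76% of all genes. No test was made of these shares, because the genes were listed with results of these data already known.

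**Figure D1:**
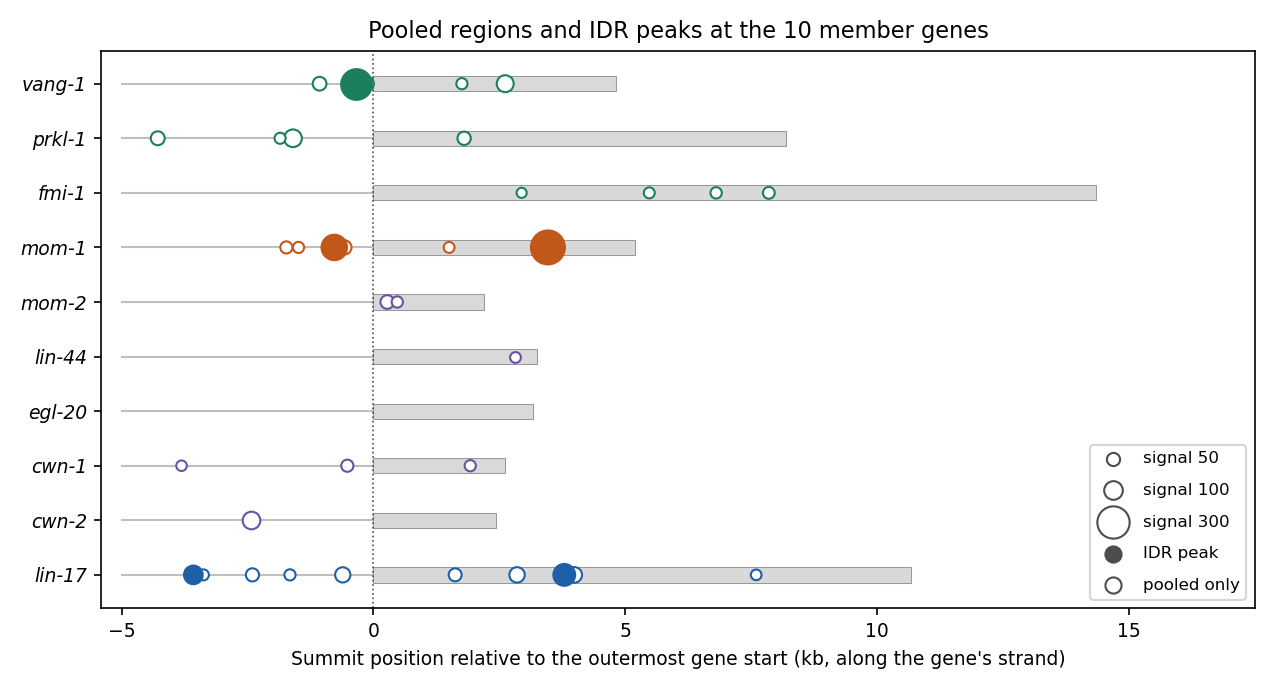
Map of the region summits along the 10 genes, aligned at the outermost gene start, with the position along the gene's strand in kb on the x axis and grey boxes for the gene bodies. Circle area follows the authors' pooled signal, filled circles are IDR peaks and open circles are pooled regions that are not. The 5 filled circles lie at vang-1, mom-1 and lin-17, 3 of them upstream and 2 inside a gene.

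The sequences around the summits are shown because the surroundings of the peaks differ in kind. Each is the plus strand of ce11, 101 bp centred on the pooled summit and read from the RefSeq genome of WBcel235. In the vang-1 lines the capitals mark the RUNX core, TGCGGT or TGTGGT, or its reverse complement. In the line upstream of mom-1 they mark the bases of an annotated tRNA gene. In the line from the mom-1 intron they mark the word GCGCAG, which was picked after the sequence had been seen. The cwn-2 line is the ligand region nearest to the IDR threshold and has no core, so it has no capitals.
vang-1, upstream peak, chrX:2885470-2885570: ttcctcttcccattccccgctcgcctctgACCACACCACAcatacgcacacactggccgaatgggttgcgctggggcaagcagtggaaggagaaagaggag
vang-1, coding exon region, chrX:2888426-2888526: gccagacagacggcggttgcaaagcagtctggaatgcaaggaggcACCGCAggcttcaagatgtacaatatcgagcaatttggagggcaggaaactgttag
mom-1, upstream peak, chrX:6292286-6292386: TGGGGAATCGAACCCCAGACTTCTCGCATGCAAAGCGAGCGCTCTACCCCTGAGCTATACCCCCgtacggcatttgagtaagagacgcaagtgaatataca
mom-1, intron peak, chrX:6296528-6296628: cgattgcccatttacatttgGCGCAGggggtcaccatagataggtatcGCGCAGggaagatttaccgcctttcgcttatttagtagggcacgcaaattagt
cwn-2, upstream region, chrIV:10065337-10065437: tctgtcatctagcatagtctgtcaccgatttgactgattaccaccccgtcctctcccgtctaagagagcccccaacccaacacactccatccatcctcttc

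Among the planar polarity genes, vang-1 carried a strong peak close to its start, prkl-1 a region just under the threshold, and fmi-1 no region in the upper part of the list. vang-1 encodes the worm Van Gogh protein, a membrane protein of the planar polarity system (WBGene00015171, chromosome X from 2885858 to 2890681, plus strand). Its IDR peak ran from 2885424 to 2885532 with the summit at 2885520, which is 338 bp and 352 bp upstream of the 2 annotated starts. The authors' signal, a score with no stated scale, was 272, at rank 146 of the pooled list. In the replicate lists the same place had a signal of 195 at rank 89 in replicate 1 and 76.9 at rank 439 in replicate 2, and the scales of the lists cannot be compared. The replicate summits lay 7 bp and 3 bp before the pooled one, so both placed it at nearly the same base. The peak was stronger by rank in replicate 1, and a ratio of replicate ranks as large as its 4.93 was found at 5.01% of the 4000 strongest pooled regions. No tRNA gene shared the vang-1 peak, and the other start windows that held its summit were those of the non-coding RNA genes F53B3.10 and F53B3.12.

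The vang-1 summit window held the RUNX core as the overlapping pair marked in capitals, with first bases 21 bp and 16 bp before the summit. Both are TGTGGT read on the minus strand. The core lay in the same window of 14.8% of all 1923 nuclear IDR peaks, and TGTGGT in that of 8.42%. A further vang-1 region, with its summit 2618 bp downstream of the start in a coding exon, had a core of the TGCGGT form with its first base 5 bp before the summit. It stayed below the IDR threshold, with a pooled signal of 82.8 at rank 2520 and ranks of 2664 and 4217 in replicates 1 and 2. The remaining 3 pooled regions at vang-1 had signals of 36.0 to 60.5.

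prkl-1, the worm Prickle gene, had no IDR peak and 4 pooled regions (WBGene00022727, chromosome IV from 6978742 to 6986935, minus strand). The strongest lay from 6988313 to 6988748 with its summit 1596 bp upstream of the outermost start, and had a signal of 90.0 at rank 2177, against a lowest IDR signal of 95.8. The replicates differed at this place. Replicate 1 had a signal of 77.1 at rank 1190 with its summit 70 bp from the pooled one, while the strongest overlapping region of replicate 2 had 16.8 at rank 10096 with its summit 313 bp away. A ratio of ranks as large as this 8.48 was found at 1.01% of the 4000 strongest pooled regions. The replicate 2 region was also the match of the overlapping prkl-1 region 1852 bp upstream, with its summit 57 bp from that pooled summit. The ratio thus compares replicate summits at 6988461 and 6988844, which may not be the same site. The pooled summit lay in the start windows of 5 other genes, none of them a tRNA gene. The other 3 regions had signals of 35.4 to 55.5. The weakest of them, 1852 bp upstream at rank 13669, had a TGCGGT core on the minus strand with its first base 9 bp before the summit. Of all 36 pooled regions at the 10 genes, 4 had a core. The share over all pooled regions is not given here, so this count has no background beside it.

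fmi-1, the gene of the atypical cadherin Flamingo, is the longest of the 10 and had weak regions alone (WBGene00001475, chromosome V from 13019061 to 13033401, plus strand). Its 4 pooled regions all lay inside the gene, with signals of 29.6 to 40.3 and ranks of 10325 to 19526. The highest of them lay in an intron and in the start window of the tRNA gene W07G4.t1. In replicate 2, 3 of the 4 had no overlapping region. The nearest IDR summit was 15460 bp upstream of the outermost fmi-1 start.

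mom-1 carried the strongest peak of the 10 genes, inside its last intron, and a further one at a tRNA gene upstream. MOM-1 is the Porcupine homologue that lipid-modifies Wnt proteins (WBGene00003394, chromosome X from 6293112 to 6298305, plus strand, 1 annotated start). The intron peak ran from 6296426 to 6296653 with its summit at 6296578, 3466 bp downstream of the start. It had a signal of 332 at pooled rank 70, with 187 at rank 105 in replicate 1 and 146 at rank 44 in replicate 2. Its replicate summits lay 1 bp and 22 bp before the pooled one, so the position was again shared. The summit is 85 bp past exon 7, in the seventh and longest intron, which spans 1299 bp. No annotated gene of any kind had a start window over this summit, and the nearest protein-coding start was that of cest-16, 3364 bp away. Neither the RUNX core nor the words GAGAGA and ACGCAG, present at 29.7% and 14.2% of nuclear IDR peaks, occurred within 50 bp. GCGCAG occurred at 2 places in this window and in the window of 6.03% of nuclear IDR peaks.

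The upstream mom-1 peak ran from 6292118 to 6292553 with its summit at 6292336, 776 bp upstream of the mom-1 start. It had a signal of 187 at pooled rank 457, with 116 at rank 431 in replicate 1 and 70.7 at rank 562 in replicate 2, so the replicates placed it at similar ranks. The replicate summits lay 44 bp and 3 bp past the pooled one. The summit fell inside T07H6.t2, a tRNA-Ala gene from 6292278 to 6292349 on the minus strand, 13 bp past its start. The start window of lev-9, a protein-coding gene on the opposite strand, held it as well, 604 bp upstream of the lev-9 start and thus nearer than mom-1. Its position alone does not assign the peak to any of the 3 genes. Of all nuclear IDR peaks, 7.38% shared a start window with a tRNA gene, and this was the 1 case among the 5 peaks at the 10 genes. Its summit window held none of the words named above. The other 4 pooled regions at mom-1 had signals of 34.0 to 59.5.

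The IDR peaks nearest in rank to the mom-1 intron peak are named by their nearest protein-coding start. By that rule the mom-1 intron peak itself would be named after cest-16, 3364 bp away. At ranks 68 and 69 were peaks nearest to C28G1.2 (signal 333, at 98 bp) and the ubiquitin ligase gene eel-1 (332, at 768 bp). At ranks 71 and 72 were peaks nearest to lgc-21 (331, at 3976 bp) and the fibroblast growth factor gene egl-17 (330.3, at 146 bp). The likeness is a difference of at most 2 ranks in 1 pooled list.

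Of the 5 Wnt ligand genes, 0 had an IDR peak and 4 had a pooled region. With an IDR peak at 14.9% of all protein-coding genes, 0 of 5 is near the background. Their 7 pooled regions had signals of 32.1 to 89.4. For all protein-coding genes, 67.0% had a pooled region in the window, against 9 of the 10 genes here, and egl-20 was the 1 without. The nearest IDR summit lay between 6268 bp from the start for lin-44 and 126955 bp from it for mom-2.

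cwn-2, a Wnt gene, had the strongest ligand region (WBGene00000858, chromosome IV from 10067816 to 10070251, plus strand). It ran from 10065169 to 10065604 with its summit 2429 bp upstream of the start and had a signal of 89.4 at rank 2200. Both replicates held it at like places and ranks, with 52.6 at rank 2450 in replicate 1 and 37.0 at rank 2123 in replicate 2, and with summits 9 bp and 8 bp from the pooled one. It was the single pooled region of cwn-2 and shared no start window with another gene. Together with the prkl-1 region it lay just outside the IDR list, while the weaker lin-17 peak described below lay just inside.

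The region nearest to a ligand start was at mom-2, the Wnt known from endoderm induction in the early embryo (WBGene00003395, chromosome V from 8355988 to 8358185). Its summit lay 276 bp downstream of the start in an intron, with a signal of 53.7 at rank 5462. Replicate 1 placed a region with the same summit at rank 3569, and the overlapping region of replicate 2 was at rank 18357 with its summit 358 bp away. At cwn-1 (WBGene00000857, chromosome II from 130983 to 133598, minus strand), a Wnt gene with 3 pooled regions, the strongest had 42.5 at rank 9088, 517 bp upstream of the outermost start. It was found at rank 3424 in replicate 2 and had no region in replicate 1, and TGTGGT began 37 bp past its summit on the plus strand.

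lin-44, the Wnt of the tail epidermis that orients the division of the T seam cell, had a single pooled region of 33.6 at rank 15203, in a coding exon 2805 bp past the start (WBGene00003029, chromosome I from 4126056 to 4129310). It had no counterpart in replicate 1. egl-20, the posterior Wnt that guides Q neuroblast migration, had no pooled region in its window (WBGene00001188, chromosome IV from 9812357 to 9815532, minus strand). The replicate lists held 2 weak regions each there, at ranks 13375 and 15579 in replicate 1 and 10972 and 17085 in replicate 2, and none of them lay at the same place in both.

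**Figure D2:**
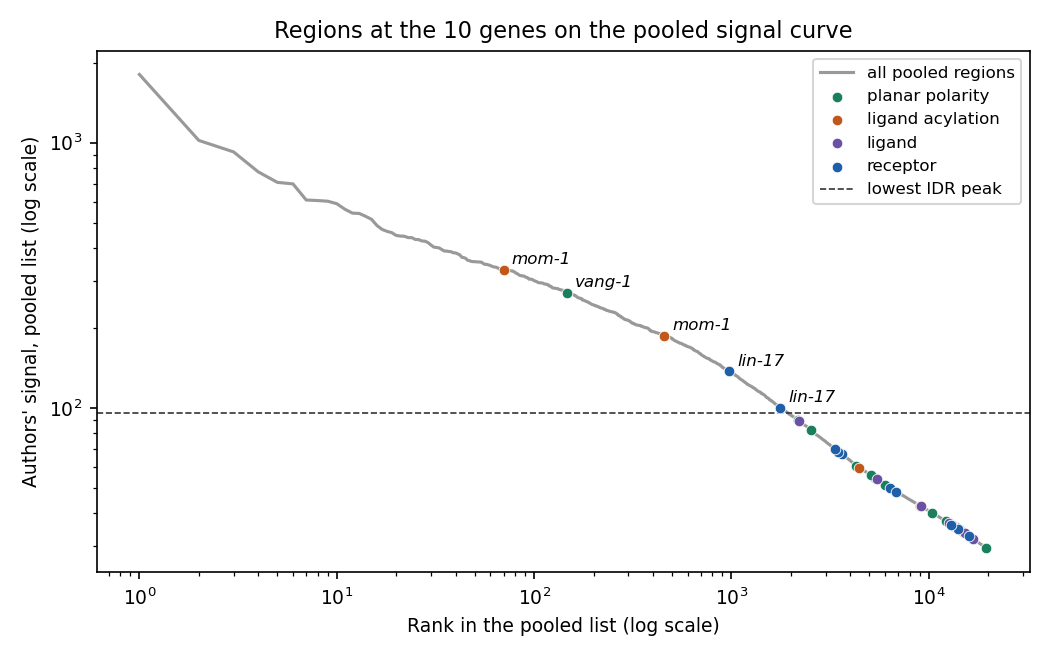
Authors' signal of all 19793 pooled regions against their rank, both on log scales, as a grey line, with the 36 regions at the 10 genes as points coloured by the role of the gene. The dashed line is the lowest IDR signal of 95.8, above which lie 2 mom-1, 1 vang-1 and 2 lin-17 points and no ligand point.

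lin-17, which encodes a frizzled receptor that acts in seam cell polarity, had 10 pooled regions, the most of the 10 genes, and 2 of them were IDR peaks (WBGene00003006, chromosome I from 2706883 to 2717549, plus strand, 5 annotated starts). Its window of 15.7 kb is longer than the median of 9.04 kb. The 10 include regions with summits at 2703508 and 2710872 that overlap its IDR peaks. Per kb of window, the 10 genes had 0.337 pooled summits and all protein-coding genes 0.197. The stronger IDR peak ran from 2710455 to 2710890 with its summit at 2710673, in the intron from 2710067 to 2711120 that all 5 annotated transcripts share. It lay 3790 bp downstream of the outermost start and 720 bp downstream of the innermost, at 2709953. The signal was 137 at pooled rank 977, with 100.2 at rank 645 in replicate 1 and 38.6 at rank 1983 in replicate 2, and the replicate summits lay 7 bp past and 26 bp before the pooled one. No other gene's start window held this summit, and it had neither the core nor the other words within 50 bp.

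The weaker lin-17 peak lay far upstream, from 2703091 to 2703526, with its summit 3574 bp before the outermost start. Its signal was 100.2 at rank 1761, close to the lowest IDR signal of 95.8. The replicates ranked it alike, at 1744 with a signal of 62.4 in replicate 1 and at 1994 with 38.5 in replicate 2. The summit lay in the start window of the non-coding RNA gene Y71F9B.21, the nearest protein-coding start was that of F32B5.1 at 2889 bp, and GAGAGA was present on the minus strand 45 bp before the summit. Of the lin-17 regions below the threshold, those in a start window of lin-17 itself were at 608 bp upstream of the outermost start, with 66.9, and at 183 bp upstream of an inner start, with 68.4. They ranked 3619 and 3478, and both IDR peaks lay outside lin-17's own start windows.

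All 5 IDR peaks had a region in both replicates, as did 99.9% of the 1923 nuclear IDR peaks. Of the 5, 3 overlapped the 1931 strongest regions of each replicate, against 74.0% of nuclear IDR peaks. The exceptions were both lin-17 peaks, which fell just past rank 1931 in replicate 2. Without replicate 1, 3 peaks at vang-1 and mom-1 were left in the top regions of replicate 2. Without replicate 2, the top regions of replicate 1 gave 7 at 4 genes, prkl-1 being the added gene. The 7 also include a further vang-1 region at rank 1294, with its summit at 2885715, which overlaps the rank 89 region. Of all 36 pooled regions at the 10 genes, 27 had an overlapping region in both replicates, 3 had none in replicate 1 and 7 had none in replicate 2. Some of the 27 overlap each other and were matched to the same replicate region, and the share over all pooled regions is not given here. The ranks were alike at the upstream mom-1 peak, the upstream lin-17 peak, the cwn-2 region and the lin-17 region at an inner start, with ratios of 1.04 to 1.3, against a median of 1.66 over the 4000 strongest pooled regions.

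**Figure D3:**
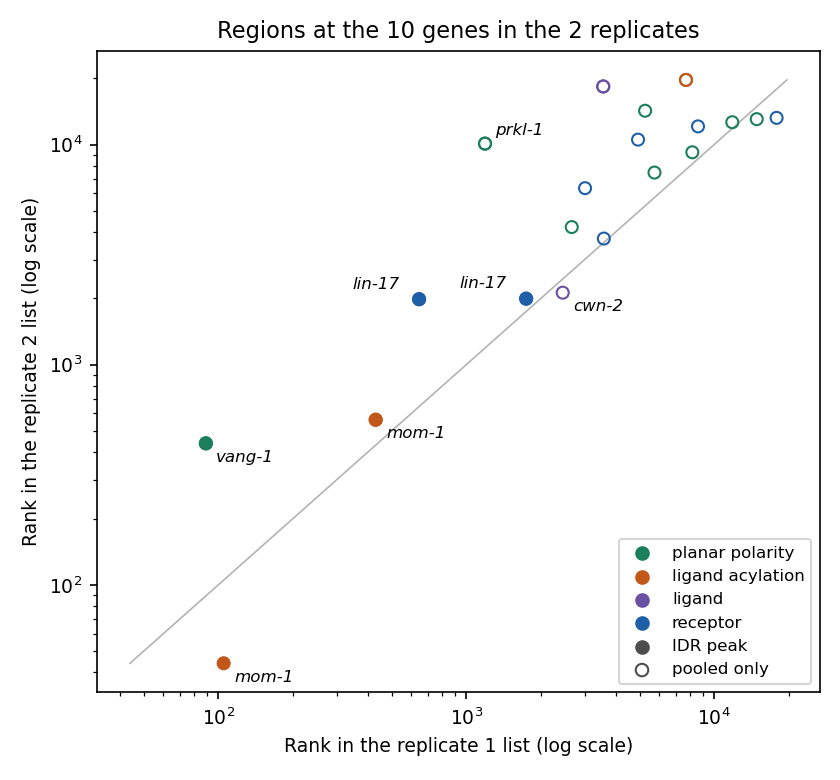
Rank of the 27 regions found in both replicates, with the replicate 1 list on the x axis and the replicate 2 list on the y axis, both on log scales, and the line of equal ranks in grey. Filled points are IDR peaks. Pooled regions that share a replicate region fall on the same point. The prkl-1 point at ranks 1190 and 10096 lies far from the line, and the cwn-2 point at 2450 and 2123 lies beside it.

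In form, the 5 peaks fell into narrow and full-width ones. The vang-1 peak was 109 bp wide and the mom-1 intron peak 228 bp, while the other 3 had the 436 bp that 87.8% of the IDR list has. Of the nuclear IDR peaks, 11.9% were narrower than 436 bp, with a median signal of 280 against 130.4 for the rest. Beside 4 of the 5 summits, all but that in the mom-1 intron, an overlapping pooled region was listed 199 bp to 204 bp away, with signals of 34.9 to 70.0. Such a neighbour was present at 28.3% of nuclear IDR peaks, at a median of 203 bp, and the counts of pooled regions above include these side regions. The G+C content of the summit windows was 59.4% at vang-1, 52.5% and 48.5% at the upstream and intron peaks of mom-1, and 49.5% and 37.6% at the upstream and intron peaks of lin-17, against a median of 49.5% over nuclear IDR peaks (quartiles 44.6% and 54.5%).

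Of 28 further genes of Wnt signalling, 14 had an IDR summit in the window, 50% against the 14.9% of all protein-coding genes, with a median window of 9.68 kb. Per kb of window, all protein-coding genes had 0.0209 IDR summits, the 10 genes 0.0468 and these 28 genes nearly the same, 0.048. Their 16 peaks had a median signal of 134, against 187 for the 5 peaks at the 10 genes and 138 for all nuclear IDR peaks, and 3 of the 28 had a summit in a start window. At receptors and secretion factors, the frizzled gene mom-5 had 185, the Ror kinase gene cam-1 had 147 in an intron, the Wntless gene mig-14 had 174, and the sorting nexin gene snx-3 had 118 at a start shared with rad-54.L. The peaks at mom-5 and mig-14 lay 2591 bp and 3430 bp upstream and nearer to the starts of algn-10 and R06B9.5. The Dishevelled genes dsh-1 and mig-5 had 109 in an intron and 170.4 at a start shared with cct-1, and dsh-2 had no IDR peak.

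Further along the pathway, the axin gene pry-1 had 128 and the other axin gene, axl-1, had no IDR peak, the casein kinase gene kin-19 had 139, and gsk-3 had 225 and 121 at 2 overlapping peaks nearer to Y18D10A.4. Of the beta-catenin genes, bar-1, hmp-2 and sys-1 had 104, 237 and 444, and wrm-1 had no IDR peak. The hmp-2 and sys-1 peaks lay nearest to K05C4.7 and to the histone gene his-68, and of these 3 peaks the bar-1 peak alone lay inside its gene. The TCF gene pop-1 had 102 and the Nemo-like kinase gene lit-1 had 122 and 104 inside the gene. The other frizzled genes mig-1 and cfz-2 and the Ryk gene lin-18 had no IDR peak. Of the genes without one, cfz-2, lin-18, wrm-1, axl-1, cdh-1 and tap-1 had a region among the 4000 strongest pooled ones. With that cut 71.4% of the 28 genes had a region, against 25.9% of all protein-coding genes. All 28 genes had a pooled region, against 67.0% of all protein-coding genes.

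**Figure D4:**
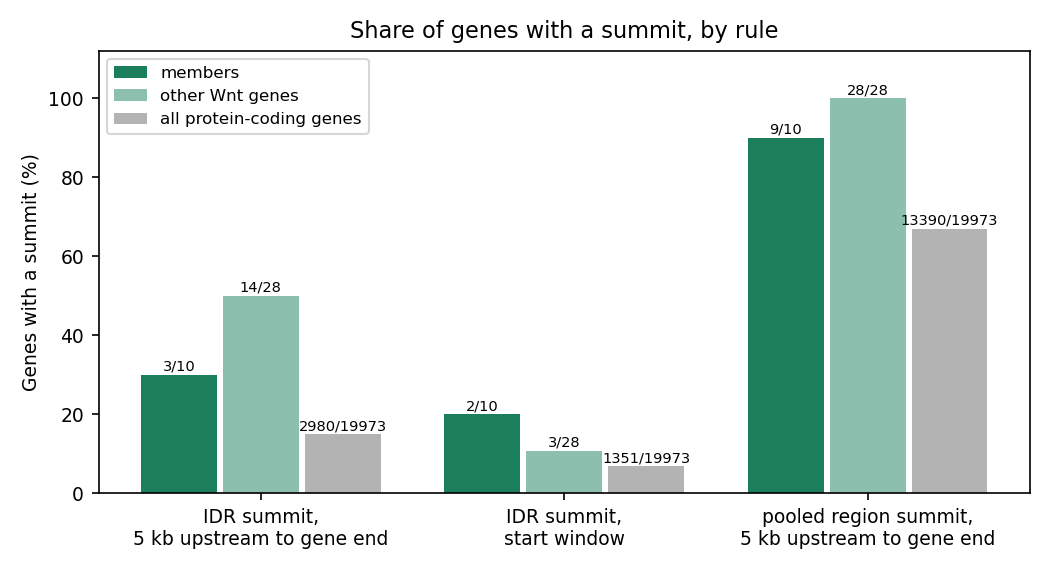
Percentage of genes with a summit under 3 rules, for the 10 genes, the 28 further Wnt genes and all 19973 protein-coding genes, with the counts above the bars. With IDR summits in the full window the shares are 30%, 50% and 14.9%, and in start windows they are 20%, 10.7% and 6.76%.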

How the data were processed

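The data were lists of regions in narrowPeak format from 2 replicates, each a separate biological replicate per the labels. The sample notes name an antibody against GFP, while the antibody field reads rnt-1. Per the file descriptions deposited with the samples, each replicate list was derived from an alignment of that replicate and a further file, and the IDR list from the replicate and pooled lists. The sample notes name a possible control, which was not analysed here. The labels and files name no aligner, peak caller or IDR threshold. The signal of each region is the value the authors deposited, used within a list for ranks. The −log10 q-value that the authors deposited is the same, 2.07, for all IDR peaks and was not used to rank. The strongest prkl-1 region and the cwn-2 region, outside the IDR list, have this value too. The ce10 lists were not used. Read depth is unknown from these files.

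Summits are 1-based on ce11 (WBcel235), the deposited start plus the deposited offset plus 1. Genes came from Ensembl release 115 and tRNA names and kinds from RefSeq of the same assembly. A pooled region was matched to the overlapping replicate region with the highest signal. Words were searched on both strands within 50 bp of a summit. No test was made, since there is 1 group and the genes and lists were chosen with earlier results of these data known. The 10 genes, the bound genes among 28 further Wnt genes, the genes sharing a peak and 2 rank neighbours on each side were named by rule. Of the further Wnt genes, 14 had no IDR peak. Those of them that are named were picked outside this rule, and not all are named. The word GCGCAG and the comparisons of width, side regions and rank ratios were chosen after the values were seen. Python 3.11.15 with pandas 2.3.3 and numpy 2.4.6 was used, and counting was checked on lists made for that purpose.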

Additional observations from a re-analysis of the deposited data

How the results depend on the processing

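The count of 3 genes with an IDR peak was 3 with 2000 bp upstream or any overlap, and 2 with start windows or the stronger part of the IDR list (965 peaks), which left out lin-17, and 2 with each summit given to the gene of the nearest start, which left out mom-1. It was 5 with the 4000 strongest pooled regions, which added prkl-1 and cwn-2. Leaving out a replicate gave 2 to 4 genes and 3 to 7 peaks in place of 5. Without replicate 1 lin-17 was lost, and without replicate 2 prkl-1 and a further, overlapping vang-1 region were added. The number of peaks was 2 with start windows and with nearest starts, 3 in the stronger part and 11 in the 4000 strongest. Over all protein-coding genes the count of 2980 (14.9%) became 2034 (10.2%) with 2000 bp upstream and 3105 (15.5%) with any overlap. It became 1351 (6.76%) with start windows and 1655 (8.29%) in the stronger part. With nearest starts it was 1667 (8.35%), and in the 4000 strongest 5180 (25.9%). Without replicate 1 it was 2936 (14.7%), and without replicate 2 it was 2985 (14.9%). For the further Wnt genes, 14 (50%) became 10 (35.7%) with 2000 bp upstream and 3 (10.7%) with start windows. It became 8 (28.6%) in the stronger part, 8 (28.6%) with nearest starts and 20 (71.4%) in the 4000 strongest. Without replicate 1 it was 13 (46.4%), and without replicate 2 or with any overlap it stayed 14. The number of peaks found in both replicates, 5, was 3 among the strongest regions of each. The causes were not tested. The single peak with a RUNX core and the single peak at a tRNA gene were the same count in each alternative tried. No paired analysis was possible because there is 1 group and no contrast. Peaks shared with neighbouring genes cannot be assigned, and depth is unknown.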
